A study of Mus musculus with 6 samples.

Results

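The Notch pathway was followed in mouse thoracic aorta through 10 genes: the receptors Notch1, Notch2, Notch3 and Notch4, the ligands Jag1, Jag2 and Dll4, and the target genes Hey1, Hey2 and Heyl. They were chosen by name, with earlier results of these data known. Every probe that the platform annotation gives to these symbols was used, which came to 14 of the 45281 probes on the array. RNA came from male C57Bl/6 mice 3 to 4 months old and was read on 6 Illumina mouse bead arrays, 3 labelled WT (SM22αCre-, Ndst wild type) and 3 labelled NDST (SM22αCre+, Ndst-/-). The series' design text names the gene as Ndst1, which encodes an enzyme that adds sulfate to heparan sulfate chains, and states a deletion restricted to smooth muscle. The Cre was driven by the promoter of SM22α, a smooth muscle gene, and the WT mice had no Cre, so Cre and the deletion cannot be told apart. Nothing in the labels says whether the 3 samples of a genotype were separate mice, and the p-values therefore measure only the spread between these samples.

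Notch receptors are cut when a ligand on a neighbouring cell pulls on them, and the freed intracellular part joins the DNA-binding protein Rbpj to switch on genes of the Hes and Hey families. In arteries, Jag1 on endothelial cells acts on Notch3 of the smooth muscle cells beneath, while Dll4, Notch1 and Notch4 act mainly between endothelial cells of arteries. Hey1, Hey2 and Heyl encode related repressors of transcription, of which Heyl is known from smooth muscle and pericytes.

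None of the members passed the test between genotypes with the probe that represents it, but 4 of them, Notch1, Notch3, Hey1 and Hey2, had NDST values that all lay above the WT values. A second probe of Hey2 passed, at 1.46 times the WT level. Notch4 and Heyl had overlapping groups, but their 95% intervals (-0.33 to 0.17 and -0.33 to 0.28 by the representing probe) are too wide to show equality. Jag2 was read only a little above background, and Notch2, Jag1 and Dll4 were too dim on these arrays to be tested. Levels below are background-corrected, quantile-normalized intensities on the log2 scale (an offset of 16 added before the log), and differences are NDST minus WT on that scale with limma's standard error, n = 3 arrays per genotype. The offset and the remaining background make the differences of dim probes too small.

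A probe was kept for testing when its detection p-value, which compares it with negative control beads, was under 0.05 on 3 or more of the 6 arrays, without regard to genotype. By that rule 7 of the 10 members were kept with 9 of their 14 probes, against 10077 of 19057 named genes in all. No kept probe of a member was detected in 1 genotype alone. A gene with several kept probes was represented by the probe with the highest mean over the 6 arrays. The lowest value of any detected probe lay between 4.90 and 4.99 on the 6 arrays. Levels of different genes are not ranked, because brightness also depends on the probe.

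The tissue markers fixed for the check were present in both genotypes. Myh11, the smooth muscle myosin, had a level of 11.8, 11.9 and 11.8 in WT and 11.8, 11.9 and 11.9 in NDST, and the endothelial cadherin Cdh5 had 8.94, 8.95 and 8.93 in WT and 9.32, 9.18 and 9.16 in NDST. All 10 smooth muscle markers and 13 of 16 endothelial markers were kept.

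**Figure D1:**
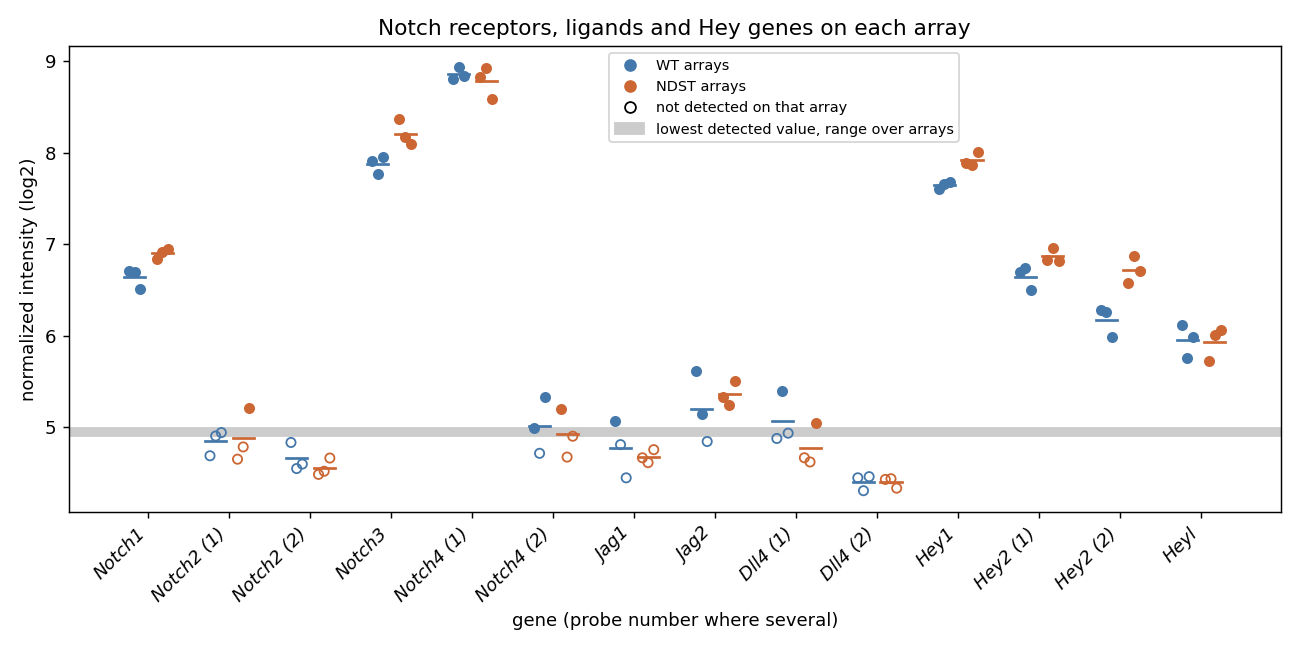
Level of each of the 14 member probes on each of the 6 arrays (vertical axis, normalized log2 intensity), with WT in blue, NDST in orange and a bar at the mean of each genotype's 3 arrays. Open points were not detected on that array, and the grey band spans the lowest detected value of the 6 arrays. The NDST points of Notch1, Notch3, Hey1 and both Hey2 probes lie above all WT points, whereas those of Notch4 and Heyl mix with them.

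Of the receptors, Notch3, the receptor of mural cells, had a level of 7.92, 7.77 and 7.96 on the WT arrays and 8.37, 8.17 and 8.10 on the NDST arrays. All 3 NDST arrays were above all 3 WT arrays. In whole aorta a different number of cells of a type and a different amount of RNA per cell cannot be told apart, here and for every gene below. The difference was 0.33 ± 0.10 (95% interval 0.09 to 0.57), and with limma's adjusted p = 0.0930 it did not pass the threshold of 0.05. As deposited, before any normalization, the mean intensity of the Notch3 probe was 335 ± 14.7 in WT and 425 ± 23.4 in NDST (SD, n = 3).

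Notch1, the receptor shared by endothelial cells and many others, had a level of 6.71, 6.70 and 6.51 in WT and 6.84, 6.92 and 6.95 in NDST. These groups did not overlap either, although the highest WT array and the lowest NDST array were only slightly apart. The difference was 0.26 ± 0.09 (95% interval 0.06 to 0.47, adjusted p = 0.109).

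Notch4, the receptor of endothelial cells, did not follow the same order with either of its probes. Its first probe, ILMN_1220697, had a level of 8.81, 8.94 and 8.84 in WT and 8.83, 8.93 and 8.59 in NDST. The NDST values enclosed most of the WT range, with NDST replicate 3 lowest of all arrays, and the difference was -0.08 ± 0.11 (95% interval -0.33 to 0.17, adjusted p = 0.678). The sign of this value turned under other scalings and without NDST replicate 3 (0.02). Its second probe, ILMN_1256134, was detected on 2 WT arrays and 1 NDST array, with a difference of -0.08 ± 0.19 (95% interval -0.53 to 0.36).

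Notch2, a receptor present in smooth muscle as well as other cells, had 2 probes. Of these, 1 was detected on NDST replicate 3 only and the other on no array, with levels from 4.48 to 5.20 over both probes. These values lie at the floor of the array and show neither presence nor absence of a difference. No probe sequences were used here, so it could not be seen which part of the transcript the probes read.

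Whether the receptors differed from each other was examined through the difference between their levels on the same array. Notch3 minus Notch4 was between -1.17 and -0.88 on the WT arrays and between -0.76 and -0.46 on the NDST arrays, a shift of 0.41 ± 0.13. Notch1 minus Notch4 shifted by 0.35 ± 0.14, and its WT and NDST ranges did not overlap. Notch3 and Notch1 shifted by amounts that differed by 0.07 ± 0.16. With 3 arrays against 3 an exact two-sided permutation test cannot go below p = 0.1, which both comparisons with Notch4 reached (adjusted p = 0.233 over the 7 pairs of probes examined), so no pair could pass. The shift of Notch3 against Notch1 had an exact permutation p = 0.6.

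Of the ligands, Jag2, which is made by endothelial cells, was the only one kept. Its level was 5.62, 5.14 and 4.84 in WT and 5.33, 5.25 and 5.50 in NDST. The WT arrays spread more widely than the NDST arrays and enclosed 3 of 3 of them, WT replicate 3 was not detected, and the difference was 0.16 ± 0.19 (95% interval -0.30 to 0.61, adjusted p = 0.653). The interval holds 0 and also the differences seen for Notch1 and Notch3.

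Jag1, the ligand through which endothelium signals to smooth muscle, was detected on WT replicate 1 alone, with levels from 4.44 to 5.07 over the 6 arrays. Dll4, the ligand of arterial endothelium and of sprouting vessels, was detected with 1 probe on WT replicate 2 and NDST replicate 3 and with its other probe on no array. Its levels ran from 4.62 to 5.39 with the first probe and from 4.30 to 4.46 with the second. Neither ligand could be compared between the genotypes at this signal.

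Of the targets, Hey1 had a level of 7.60, 7.66 and 7.68 in WT and 7.89, 7.87 and 8.01 in NDST. The groups were well apart compared with their spread (SD 0.04 in WT and 0.07 in NDST, n = 3 each). The difference was 0.27 ± 0.08 (95% interval 0.10 to 0.45), or 1.21-fold, and limma's adjusted p = 0.0744 stayed above the threshold. The deposited intensity averaged 301 ± 9.86 in WT and 368 ± 16.8 in NDST (SD, n = 3).

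Hey2, a target known for its roles in arteries and in the ventricles of the heart, was read by 2 probes that differed in size. The probe that represents it, ILMN_2657207, had a level of 6.69, 6.74 and 6.51 in WT and 6.83, 6.96 and 6.82 in NDST. Its groups did not overlap, and the difference was 0.23 ± 0.09 (95% interval 0.01 to 0.44, adjusted p = 0.182). The second probe, ILMN_2657210, had a level of 6.28, 6.26 and 5.98 in WT and 6.58, 6.87 and 6.71 in NDST. Its groups were further apart, and it rose by 0.54 ± 0.12 (95% interval 0.27 to 0.82, adjusted p = 0.0396). That call was lost whichever single array was left out (adjusted p = 0.0646 to 0.110), and the adjusted p ran from 0.00387 to 0.110 over 17 alternatives. Leaving out an array also cut the calls over all kept probes, from 1336 to between 404 and 532. Such a loss, here and below, was therefore common. It was not general, because Pi16 and an Ephb4 probe, both described below, kept their calls without any single array. Both probes are annotated to the same transcript, and the estimate of each lay outside the 95% interval of the other.

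Heyl, the target known from mural cells, had a level of 6.12, 5.76 and 5.99 in WT and 5.73, 6.01 and 6.06 in NDST. The groups overlapped fully, and the difference was -0.02 ± 0.13 (95% interval -0.33 to 0.28, adjusted p = 0.938). The interval holds 0 and also the differences of Hey1 and of the representing Hey2 probe. On the same arrays Hey1 minus Heyl shifted by 0.30 ± 0.15 (exact permutation p = 0.2) and Hey2 minus Heyl by 0.25 ± 0.18 (exact permutation p = 0.3) with the representing probe of Hey2. With the second Hey2 probe that shift was 0.57 ± 0.16 and the WT and NDST ranges did not overlap (exact permutation p = 0.1, the smallest possible). Hey1 and Hey2 differed in shift by 0.05 ± 0.12.

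**Figure D2:**
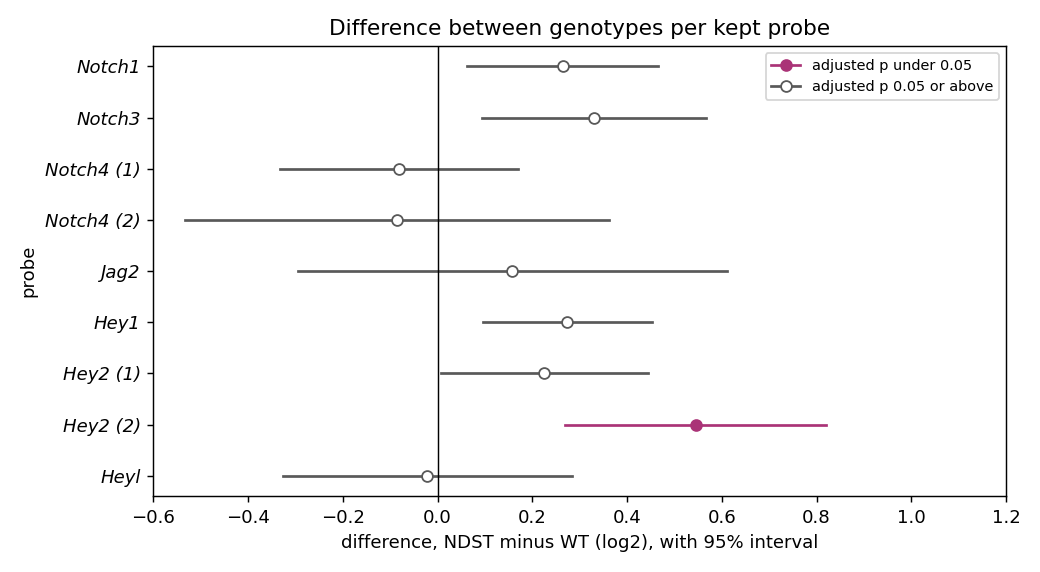
Difference between the genotypes for the 9 kept member probes (horizontal axis, NDST minus WT in log2; lines are 95% intervals from limma, n = 3 arrays per genotype). Filled points passed the adjusted threshold of 0.05, which holds for the second Hey2 probe alone, and the intervals of Notch1, Notch3, Hey1 and both Hey2 probes lie above 0.

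Read against the whole array, 0 of 7 kept members passed by their representing probe, higher or lower, where 4.61% of the 10077 genes tested passed as higher in NDST and 2.74% as lower. By single probes, 1 of 9 member probes passed as higher, against 4.32% of 17954 kept probes. Without adjustment, 4 of 7 members had a limma p under 0.05 and all 4 were higher in NDST, where 14.0% of all genes met that rule. The same 4 had NDST values that lay wholly above WT, which held for 18.0% of all genes, and none lay wholly below, which held for 16.1%. The median difference was 0.23 over the 7 kept members and 0.005 over all genes tested. The members were chosen with earlier results of these data known. These comparisons with all genes therefore cannot decide whether the set as a whole differed.

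Whether these members passed depended on the processing. Of 18 alternatives, Notch1 passed under 2, Notch3 and Hey1 under 6 each and the representing Hey2 probe under 1. Notch3 and Hey1 both passed with no background correction (adjusted p = 0.00979 and 0.0223) and with trended and robust variances (adjusted p = 0.0126 and 0.0341), both with the same quantile normalization between arrays. Of the called probes over the whole array, 58.1% were higher in NDST with quantile normalization, 82.9% with median scaling, 88.9% with no normalization between arrays and 41.5% in the authors' processed values. Without normalization the median of all kept probes stood 0.13 higher in NDST, and with median scaling 0.08. Under median scaling Notch1 was at 0.40 (adjusted p = 0.0450), Notch3 at 0.43 (adjusted p = 0.0467) and Hey1 at 0.38 (adjusted p = 0.0254). Measured from the median of all probes, Notch1 was at 0.32, Notch3 at 0.35, Hey1 at 0.30 and the representing Hey2 probe at 0.28 with median scaling, against 0.27, 0.34, 0.28 and 0.23 with quantile normalization. In the authors' processed values, whose scaling is unknown and which carry background, Notch3 was at 0.22 (adjusted p = 0.0113) and Hey1 at 0.18 (adjusted p = 0.0220). Over all 18 alternatives the adjusted p ran from 0.0195 to 0.233 for Notch1, from 0.00979 to 0.211 for Notch3, from 0.0165 to 0.173 for Hey1 and from 0.0316 to 0.380 for the representing Hey2 probe. The difference of these 4 members ran over the 18 alternatives from 0.12 to 0.45 for Notch1, 0.22 to 0.48 for Notch3, 0.17 to 0.43 for Hey1 and 0.10 to 0.41 for Hey2. Its constant sign is no added evidence. Settings that changed only the filter, the variance model or the replicate block kept the same estimates. With groups that did not overlap, leaving out a single array could hardly turn a sign.

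**Figure D3:**
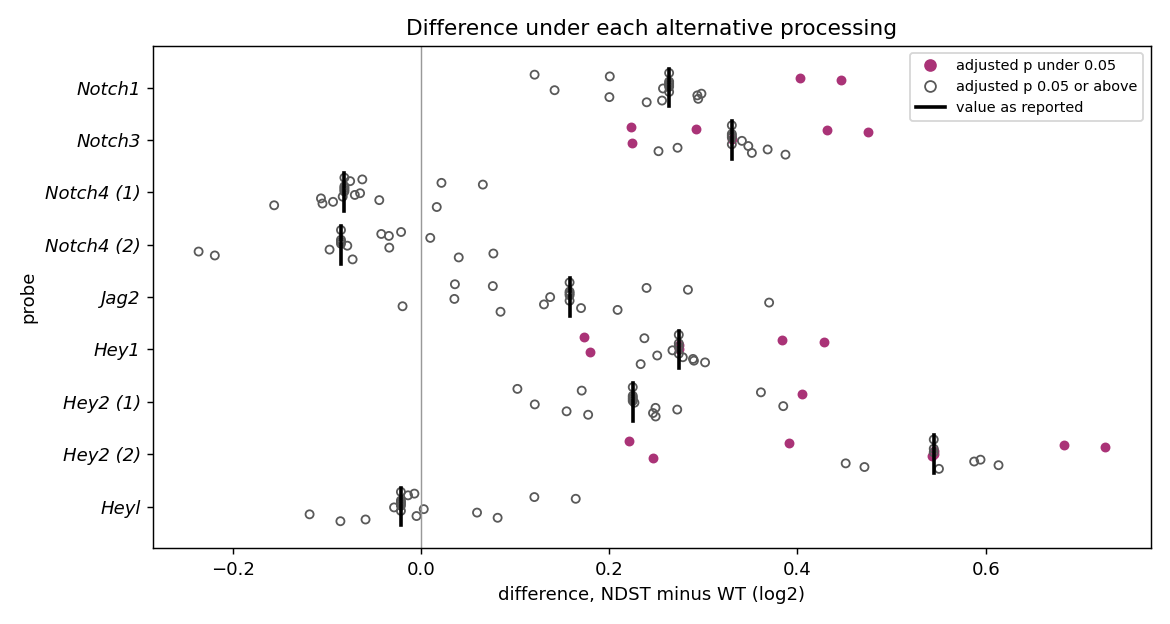
Difference of each of the 9 kept member probes (horizontal axis, NDST minus WT in log2) under each alternative processing, 1 point per alternative, with the value as reported as a black bar. Filled points passed the adjusted threshold of 0.05. The points of Notch1, Notch3, Hey1 and Hey2 all lie above 0 and pass under some alternatives, and those of Notch4, Jag2 and Heyl fall on both sides of 0.

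The promoter of Hey2 is shown because Rbpj, the factor that Notch activates, is known to act through the letters TGGGAA, and because it alone among the 8 member promoters searched held them. RefSeq windows of the GRCm38.p6 build, 250 bases before to 50 after a start site, were matched for 8 of the 10 members, all but Hey1 and Heyl. For 5 of the 8 that site is the annotated start of the gene, and it lies 6 bases inside the gene for Notch3, 9 for Notch4 and 317 for Jag2, whose window is therefore wholly inside the gene. In the Hey2 window (chr10:30842734-30843033, minus strand, written 5′ to 3′ along the gene) TGGGAA begins at base 248 and its reverse complement at base 44, with the start site at base 251, and both matches extend to GTGGGAA. Of 32851 windows of the same length 25.6% held TGGGAA on either strand and 6.38% held GTGGGAA, which contains it. The E-box CACGTG, a site that Hey proteins can bind, was in none of the 8 member windows and in 7.15% of all windows. The window of Notch3 (chr17:32166841-32167140, minus strand), the receptor with the largest difference, is set beside it and held none of the 3 motifs. Capitals mark TGGGAA on either strand.
Hey2: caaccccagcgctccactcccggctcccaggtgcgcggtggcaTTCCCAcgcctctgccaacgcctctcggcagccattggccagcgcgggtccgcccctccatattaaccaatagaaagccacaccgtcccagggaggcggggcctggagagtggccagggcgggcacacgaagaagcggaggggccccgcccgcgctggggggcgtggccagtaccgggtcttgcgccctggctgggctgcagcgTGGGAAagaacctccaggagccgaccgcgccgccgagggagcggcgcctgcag
Notch3: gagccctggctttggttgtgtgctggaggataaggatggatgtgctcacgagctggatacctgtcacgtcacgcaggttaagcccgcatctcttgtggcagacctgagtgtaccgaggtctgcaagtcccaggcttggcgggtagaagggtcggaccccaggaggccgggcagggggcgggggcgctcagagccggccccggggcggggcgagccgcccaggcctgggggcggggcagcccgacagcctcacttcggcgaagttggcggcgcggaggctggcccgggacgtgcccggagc
A match is a stretch of letters and was not tested as a binding site here.

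Of the other genes of the pathway, Dtx3l, Tle1 and Ccnd1 rose. Of 39 kept genes in the lists of other ligands, receptor cleavage, sugar modification and trafficking, nuclear partners and other targets, 3 rose and none fell by their representing probe, against the 4.61% and 2.74% of all genes given above. By single probes, 3 of 65 passed as higher and 2 as lower, against 4.32% and 3.12% of all kept probes. The median difference of the 39 genes was 0.04, and with so few calls nothing is read from the count. None of the 3 encodes a ligand, a receptor or Rbpj. Dtx3l rose by 0.48 ± 0.08 (adjusted p = 0.0192), and it encodes a ubiquitin ligase of the Deltex family that is induced by interferon. Another kept probe of Dtx3l stood at -0.15. Tle1, a corepressor used by Hes proteins and other factors, rose by 0.40 ± 0.09 (adjusted p = 0.0472), with its other kept probes at 0.33 and 0.01. Ccnd1, which encodes cyclin D1 and responds to many growth signals, rose by 0.31 ± 0.07 (adjusted p = 0.0478) and its other probes stood at 0.35 and 0.36. All 3 calls were lost whichever single array was left out, as were most calls over all kept probes. Over 18 alternatives the adjusted p ran from 0.000498 to 0.181 for Dtx3l, from 0.00158 to 0.126 for Tle1 and from 0.00207 to 0.124 for Ccnd1.

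Of the other targets, Hes1 and Nrarp had overlapping groups, whereas Gata2 was higher on every NDST array without passing. Hes1 is a repressor switched on by Notch in most tissues. Its level was 7.23, 7.19 and 7.35 in WT and 7.20, 7.30 and 7.22 in NDST. The difference was -0.02 ± 0.08 (95% interval -0.20 to 0.17, adjusted p = 0.925). That interval does not hold the difference of Hey1 (0.27) or of the representing Hey2 probe (0.23). It does overlap their own intervals (0.10 to 0.45 and 0.01 to 0.44). The sign of the Hes1 value turned under median scaling and without normalization. Nrarp, a target that feeds back on the receptor, stood at 0.09 ± 0.11 (95% interval -0.18 to 0.35, adjusted p = 0.672), an interval that holds the difference of Hey1 as well as 0. Gata2, a transcription factor of endothelial and blood cells, had a level of 8.06, 8.24 and 8.09 in WT and 8.36, 8.37 and 8.46 in NDST, a difference of 0.27 ± 0.08 (adjusted p = 0.0968). Ephb4, the receptor that marks venous endothelium, stood at 0.01 with its representing probe and -0.07 with a second, but its dimmest probe, ILMN_2973206, fell by 0.60 (adjusted p = 0.00554) and passed under all 17 alternatives. Rbpj itself and Lfng, the sugar transferase that tunes which ligand a receptor answers, were not detected on enough arrays.

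Of the genes whose products cut the receptor, none of 7 kept passed by the representing probe. These lay between -0.23 and 0.07, with the γ-secretase subunit Ncstn at 0.07 ± 0.07. Adam17, a protease that can cut the receptor after a ligand pulls on it, stood at -0.14 ± 0.09. The γ-secretase subunit Aph1a stood at 0.00 with its representing probe, while its second probe, ILMN_2588759, fell by 0.50 (95% interval -0.77 to -0.24, adjusted p = 0.0447). The call of that probe was lost whichever single array was left out, and its adjusted p ran from 0.00534 to 0.113 over 17 alternatives. Of 2 other ligands kept, Dll1 stood at 0.06 ± 0.18 and the non-canonical Dlk1 at 0.25 ± 0.13 (adjusted p = 0.280).

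Several markers of the cells that carry Notch receptors differed in the same direction as the 4 members. Of 13 kept endothelial markers 2 rose, Cldn5 (0.51 ± 0.07, adjusted p = 0.0128), a protein of tight junctions, and Vwf (0.45 ± 0.09, adjusted p = 0.0308), the clotting factor carrier. Of these 13, 11 stood above 0, while Eng (-0.13 ± 0.10) and Tie1 (-0.06 ± 0.08) stood below. Over all genes tested, 4.61% passed as higher, 2.74% passed as lower and 5143 of 10077 stood above 0. The counts of this and the other cell lists are to be read against these shares. The lists were chosen with earlier results of these data known, so the comparison is descriptive only. The median of the list was 0.21, with Cdh5 at 0.28 ± 0.08 and Pecam1 at 0.18 ± 0.08, neither past the threshold. The summed normalized intensity of its markers was 7802 to 8337 on the WT arrays and 9432 to 9501 on the NDST arrays. Of 9 kept arterial endothelial markers 4 rose: the gap junction protein Gja5 (0.47 ± 0.08, adjusted p = 0.0192), the kinase Bmx (0.49 ± 0.10), the coreceptor Nrp1 (0.34 ± 0.07) and the netrin receptor Unc5b (0.79 ± 0.18). Of these 9, 7 stood above 0, while Gja4 (-0.06 ± 0.08) and Acvrl1 (-0.03 ± 0.11) stood below. The list's median was 0.34 with a summed intensity of 3308 to 3406 in WT and 4135 to 4394 in NDST, and Hey1 is itself on it. Nrp1, with a mean level of 11.3 in WT and 11.7 in NDST, made up most of these sums. They therefore mainly follow that gene and not the list. Of 5 kept lymphatic markers 2 rose, Reln (0.61 ± 0.11) and Ccl21a (0.38 ± 0.07), and the median was 0.38 with sums of 442 to 504 in WT and 606 to 694 in NDST. The defining markers Kdr, Erg and Ecscr of the endothelial list and Prox1 of the lymphatic list were not detected on enough arrays. Leaving out single arrays left 0 to 1 calls in the endothelial, 0 to 2 in the arterial and 0 to 1 in the lymphatic list. Cldn5 passed under 15 of 18 alternatives, and its call was lost without NDST replicate 2 and without NDST replicate 3.

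Markers of the muscle wall showed no common direction. Of 10 smooth muscle markers Lmod1 fell by 0.31 (adjusted p = 0.0472) and none passed as higher. The median was 0.03, with sums of 48114 to 49502 in WT and 48471 to 50777 in NDST. Acta2, with a mean level of 15.1 in WT and 15.2 in NDST, made up most of these sums. Des (0.31 ± 0.10, adjusted p = 0.119) and Myocd (0.31 ± 0.11, adjusted p = 0.128) were higher on every NDST array without passing. In all, 3 of the 10 lay wholly above WT and 2 wholly below, against 18.0% and 16.1% of all genes. Myh11 stood at 0.04 ± 0.07 and Acta2 at 0.02 ± 0.07. Of 7 mural markers, Notch3 among them, Cspg4 fell by 0.39 (adjusted p = 0.0467) and the median was 0.12, with sums of 2724 to 2911 in WT and 2798 to 2902 in NDST. Against 0.33 for Notch3, the other 6 mural markers stood between -0.39 and 0.25, with Rgs5, a brake on G protein signalling, at 0.23 ± 0.09. The calls of Lmod1 and Cspg4 were lost whichever array was left out and with median scaling, and the sign of Acta2 turned with median scaling (-0.05).

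Adventitial fibroblast markers were higher as well, with 6 of 10 past the threshold, among them Pi16 (0.67 ± 0.08, adjusted p = 0.00601). The median was 0.40, with sums of 16431 to 16688 in WT and 20485 to 21330 in NDST. Dcn, with a mean level of 13.2 in WT and 13.5 in NDST, made up most of these sums. Pi16 passed under all 18 alternatives, but the list kept 1 call when any single array was left out. Heart muscle markers had 12 of 13 past the threshold as higher, a median of 3.23 and sums of 1957 to 2011 in WT and 19655 to 20440 in NDST, and 11 or 12 passed without any single array. Of 4 endocardial and valve markers Tmem100 rose (0.44 ± 0.08), and the median was 0.02. Of the other lists, adipocyte, macrophage and lymphocyte markers had no call (medians -0.09, -0.13 and 0.08), while 2 of 7 epithelial markers rose and 1 fell. The part of these cell types in the differences of the Notch and Hey genes was not tested.

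**Figure D4:**
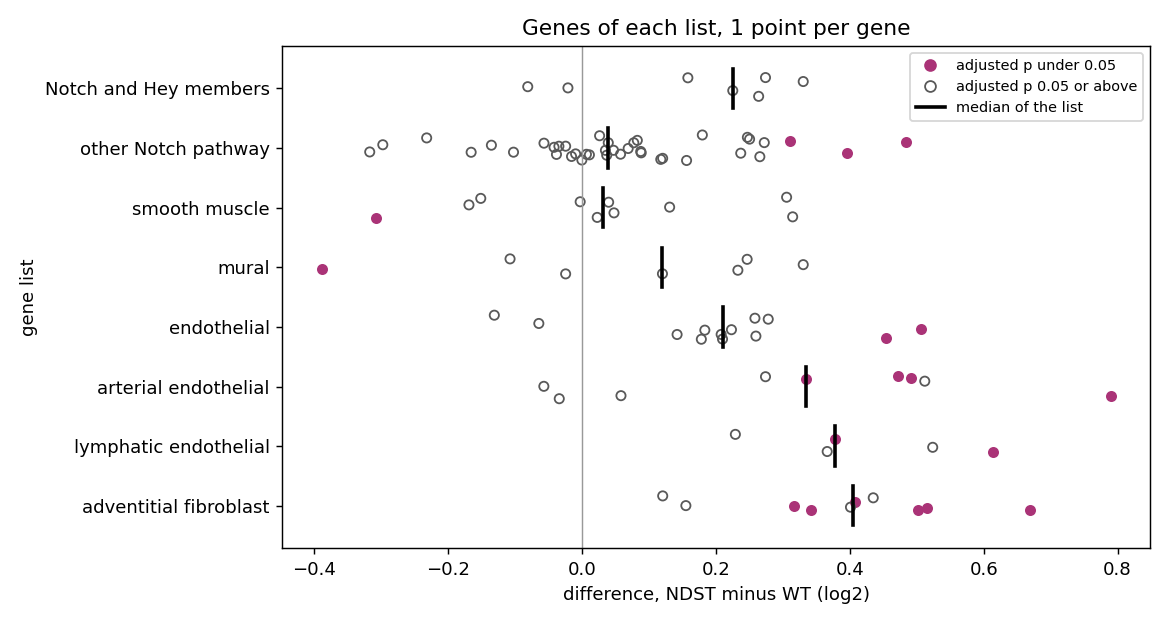
Difference of every kept gene of 8 lists (horizontal axis, NDST minus WT in log2; 1 point per gene by its representing probe, spread vertically for legibility; the black bar is the list's median). Filled points passed the adjusted threshold of 0.05. Notch3 also appears in the mural list and Hey1 in the arterial endothelial list. The medians are 0.23 for the 7 members, 0.04 for the other pathway genes, 0.03 for smooth muscle and 0.12 for mural markers. They are 0.21 for endothelial, 0.34 for arterial endothelial, 0.38 for lymphatic and 0.40 for adventitial fibroblast markers. The heart muscle markers, with a median of 3.23, are not drawn.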

How the data were processed

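RNA of 6 thoracic aorta samples was read on Illumina bead arrays. Per the file headers, the authors deposited for each probe and array an intensity that was not normalized, on a linear scale, and a detection p-value. Of tools, the submitters' processing notes name GenomeStudio alone. A table of the authors' processed intensities, of unstated scaling, served as an alternative. Intensities were background-corrected by normexp from the detection p-values, quantile-normalized with an offset of 16 and put on the log2 scale with neqc of limma 3.58.1 in R 4.3.3. Each of the 17954 kept probes was then tested between NDST and WT (lmFit, eBayes, two-sided), and p-values were adjusted over them by Benjamini and Hochberg. Array medians were 130 to 141 and 17549 to 18619 probes per array were detected, so that 6 arrays limit the precision: the median SD within a genotype was 0.13 in log2. Probes were named from the platform annotation, with 34885 given 1 gene and 18 several, which were not named. No 2 arrays held identical values. The steps were tested on simulated arrays.

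The members and the 18 lists (174 genes) were chosen with earlier results of these data known. The genes named are all members with every probe, the other pathway genes past the threshold together with Rbpj, Hes1, Nrarp and Lfng, Myh11, Acta2, Pecam1 and Cdh5, and up to 3 genes per cell list with the smallest p. Ncstn, Adam17, Dll1, Dlk1, Gata2, Unc5b and the second probes of Aph1a and Ephb4 were added after their values were seen. So were Eng, Tie1, Gja4 and Acvrl1. Deviations of same-numbered arrays correlated at -0.01, 0.01 and 0.02, and those of differently numbered arrays at -0.04 to 0.03. These values gave no sign that the replicate numbers pair the samples, but a weak pairing could look the same.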

Additional observations from a re-analysis of the deposited data

How the results depend on the processing

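Calls of the members depended on the processing. The number of member genes past the threshold as higher, 0 as reported, was 2 with no background correction, 1 with an offset of 50, 3 with median scaling, 4 without normalization between arrays, 1 among probes detected on all 6 arrays, 2 with trended and robust variances and 2 in the authors' processed values. Of member probes, 1 as reported, it was 3, 2, 4, 5, 2, 3 and 3 under these settings, and 0 with the replicate block, with no filter or with detection on at least 1 array. Of other pathway genes, 3 as reported, 0 passed with the replicate block, 5 with median scaling, 7 without normalization, 1 with no filter, 1 with detection on at least 1 array and 1 with probes averaged by gene. Leaving out any single array left 0 calls (from 0 to 0) for each of these counts, and no count of lower members or pathway genes moved from 0. The calls over all kept probes then fell as well, to between 404 and 532. With array weights these counts were as reported. With the replicate block, the calls over all kept probes went from 1336 to 364. Of the named genes that passed, Pi16 and the Ephb4 probe kept their calls under it, and adjusted p was 0.0811 for the second Hey2 probe, 0.0718 for Dtx3l, 0.0790 for Tle1, 0.118 for Ccnd1, 0.113 for the Aph1a probe and 0.0573 to 0.111 for 11 cell markers. The replicate numbers share no known source. The alternatives for cell markers, Gata2 and other added genes were chosen after seeing the data.

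Signs turned for small differences. With median scaling, without normalization and in the authors' processed values, in that order, Heyl stood at 0.121, 0.164 and 0.00303 and Hes1 at 0.114, 0.158 and 0.00132. The first Notch4 probe stood at 0.0218 with median scaling and 0.0658 without normalization, and the second at 0.00994 without normalization. Leaving out single arrays gave -0.156 to 0.0168 for the first and -0.236 to 0.0770 for the second Notch4 probe, -0.0195 to 0.370 for Jag2, -0.118 to 0.0815 for Heyl, -0.0488 to 0.0309 for Hes1 and -0.00866 to 0.171 for Nrarp. Adam17 stood at 0.0255 without normalization, Myh11 at -0.0936 in the authors' processed values, and Acta2 at -0.0550, -0.0110 and -0.165 with median scaling, without normalization and in the authors' processed values; leaving out single arrays gave -0.136 to 0.164 for Dll1 and -0.00815 to 0.0361 for Acta2. The cause was not tested. Signal near background limits what can be said of Notch2, Jag1, Jag2 and Dll4.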
